A study of Rattus norvegicus with 6 samples.

Results

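Imprinted genes, which are read from only one of the 2 parental copies, were followed in the brains of newborn rats, with Igf2 left aside. A list of 37 gene symbols, chosen with earlier results of these data known, was matched to the gene names of the deposited tables. The matching itself used no measured value. Of these symbols 35 were found, on 36 of the 30498 rows, because Gnas has 2 rows. Meg3 and Commd1 have no row under these names, and their levels were not analysed here. The mean over all libraries reached 0.5 FPKM (fragments per kilobase of exon, scaled to the assigned reads of each library) for 32 of the 36 rows, and these were tested. Cd81, Slc22a18, Phlda2 and Rtl1 stayed under it and are given as values.

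The study modelled fetal growth restriction in rats (Rattus norvegicus). The CR group comprised 3 brain libraries of pups from dams kept on caloric restriction, and the control group 3 brain libraries from control dams. Birth was by Caesarean section with the brain taken at once, and the labels call every sample whole brain; they give no strain, sex, degree or timing of the restriction. They also do not say whether the libraries of a group are separate pups or litters. RNA of Y-linked genes summed to 48.4, 0.362 and 46.2 FPKM in CR libraries 1 to 3, against 0.179, 0.109 and 50.2 in control libraries 1 to 3. The libraries of a group thus do not all come from the same pup. Whether those alike in Y-linked RNA are separate pups is not given. The p-values below measure the spread between these libraries, part of which may be technical. Each library held between 14030961 and 25734737 assigned reads. For 1 kb of exon, 3 reads amount to 0.117 to 0.214 FPKM depending on the library, a limit that covers counting error only.

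Imprinting is set in the germ line, where DNA methylation of control regions marks the copy from one parent, and the mark is kept through the divisions of the embryo by factors that read the methylated sequence. Imprinted genes lie in clusters in which neighbours can be read from opposite parental copies, and many of them regulate fetal growth, the placenta, and in the brain the hypothalamic circuits of feeding, body temperature and maternal care. The tables hold no alleles: which parental copy a gene is read from is known mainly from mouse, and a level here is the sum of both copies.

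Marker genes of several brain regions differed between the groups, which touches every result that follows. Summed FPKM of 12 hypothalamic marker genes was 49.5 to 72.0 in CR libraries and 7.24 to 9.64 in control libraries, with all 12 genes higher in every CR library. The 11 midbrain and hindbrain markers with a row summed to 40.1 to 57.7 FPKM in CR and 1.22 to 1.88 in control, where Hoxa2 and Hoxb5 had no reads. The 10 dorsal telencephalic markers, of cortex, summed to 186 to 292 FPKM in CR and 506 to 626 in control, and the 10 ventral ones, of striatum and its surroundings, to 83.8 to 94.0 in CR and 134 to 166 in control. In RNA labelled as whole brain, fewer cells of a type, less RNA per cell and a difference in the tissue taken cannot be told apart. The part of regional makeup in the changes of imprinted genes was not tested.

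Most of the measured imprinted genes were higher in CR. With limma on log2(FPKM + 1) and an adjusted p under 0.05 over all tested genes, 22 of the 32 rows (68.8%) were higher in CR and 1, Ube3a, was lower. Of all 15247 tested genes, 17.7% were higher and 16.2% lower by the same rule. The median log2 fold change of the 32 rows was 0.48, beside 0.01 over all tested genes. Every CR library was above every control library in 24 rows (26.1% of all tested genes) and below in 2, Ube3a and Slc38a4 (24.3%). Without CR replicate 2 the calls over all genes dropped to 3243, and without CR replicate 3 to 3339, from 5173 with all libraries; 19 of the 32 imprinted rows were called higher in each of these fits.

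Higher genes were found in each parental class. Of 16 tested rows of genes read from the paternal copy, 13 were higher and 3 did not pass, with a median log2 fold change of 0.53. Of 10 tested rows of genes read from the maternal copy, 5 were higher, Ube3a was lower and the remaining 4 did not pass, with a median of 0.52. Of the 6 rows in which the copy differs by transcript or tissue, 4 were higher and 2 did not pass, with a median of 0.40. These classes follow what is known mainly from mouse, and whether each gene is imprinted in rat brain was not checked. The difference between the classes was not tested.

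**Figure D1:**
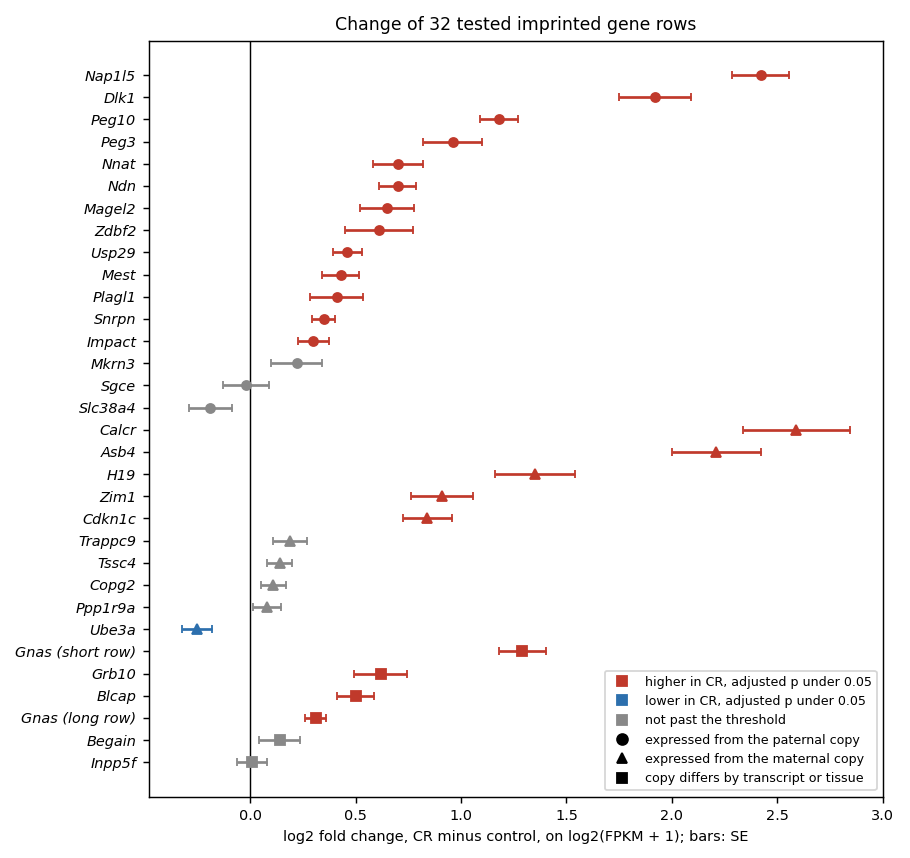
Log2 fold change (horizontal, CR minus control on log2(FPKM + 1)) of the 32 tested rows of imprinted genes, with bars for the SE; colour gives the limma call and shape the parental class. Calcr, Nap1l5, Asb4 and Dlk1 stand farthest to the right, from 1.92 to 2.59, and Ube3a is the single row called lower.

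The genes with the largest changes were Calcr, Nap1l5, Asb4 and Dlk1. Nap1l5 (ENSRNOG00000007808, chromosome 4 from 88022569 to 88024654 on mRatBN7.2) is a retrogene related to nucleosome assembly proteins, read from the paternal copy. It had 247, 271 and 290 FPKM in CR libraries 1 to 3, against 47.9, 41.1 and 61.8 FPKM in control libraries 1 to 3. The lowest CR library was thus far above the highest control library, and the log2 fold change was 2.42 (SE 0.136, limma adjusted p = 0.000133). Its gene lies within that of Herc3, on the other strand and with no shared exon; Herc3 had 9.0 ± 0.641 FPKM in CR and 6.7 ± 0.42 in control (SD, n = 3 each), a log2 fold change of 0.38 (limma adjusted p = 0.00961).

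Calcr and Asb4 are 2 maternally read genes of the chromosome 4 cluster around Peg10. Calcr, the calcitonin receptor, through which amylin acts on feeding circuits, had 9.2, 11.8 and 10.7 FPKM in CR libraries, against 1.15, 0.246 and 1.61 FPKM in control libraries. Asb4, a substrate-binding subunit of ubiquitin ligases known from the rodent arcuate nucleus, had 6.28, 7.88 and 9.34 FPKM in CR libraries, against 1.09, 0.392 and 1.33 FPKM in control libraries. The groups were apart for both genes, and for both the lowest value was that of control library 2, which had 22 reads of Calcr. The CR mean was 10.5 times the control mean for Calcr (log2 fold change 2.59, SE 0.254, limma adjusted p = 0.000745) and 8.37 times for Asb4 (2.21, SE 0.211, limma adjusted p = 0.000691). The pseudocount of 1 FPKM compresses such low levels: limma-voom on reads gave 3.94 for Calcr and 3.33 for Asb4.

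Dlk1 (ENSRNOG00000019584, chromosome 6 from 128410316 to 128417522), a membrane protein with EGF-like repeats that restrains differentiation in fat, pituitary and neural stem cells, had 17.6, 17.3 and 20.3 FPKM in CR libraries, against 3.87, 3.1 and 5.76 FPKM in control libraries. The groups were well apart, with a log2 fold change of 1.92 (SE 0.171, limma adjusted p = 0.000577). Rtl1, a retrotransposon-derived gene of the same cluster that matters in the placenta, was measured at 2 to 42 reads a library. It had 0.249, 0.289 and 0.348 FPKM in CR libraries, against 0.136, 0.0168 and 0.15 FPKM in control libraries, too low to be tested, with every CR library above every control library. Begain, a postsynaptic scaffold protein gene at the cluster's edge, had 14.0, 15.3 and 16.6 FPKM in CR and 15.7, 12.4 and 13.3 in control; its groups overlapped (log2 fold change 0.14, SE 0.0972, limma adjusted p = 0.289).

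**Figure D2:**
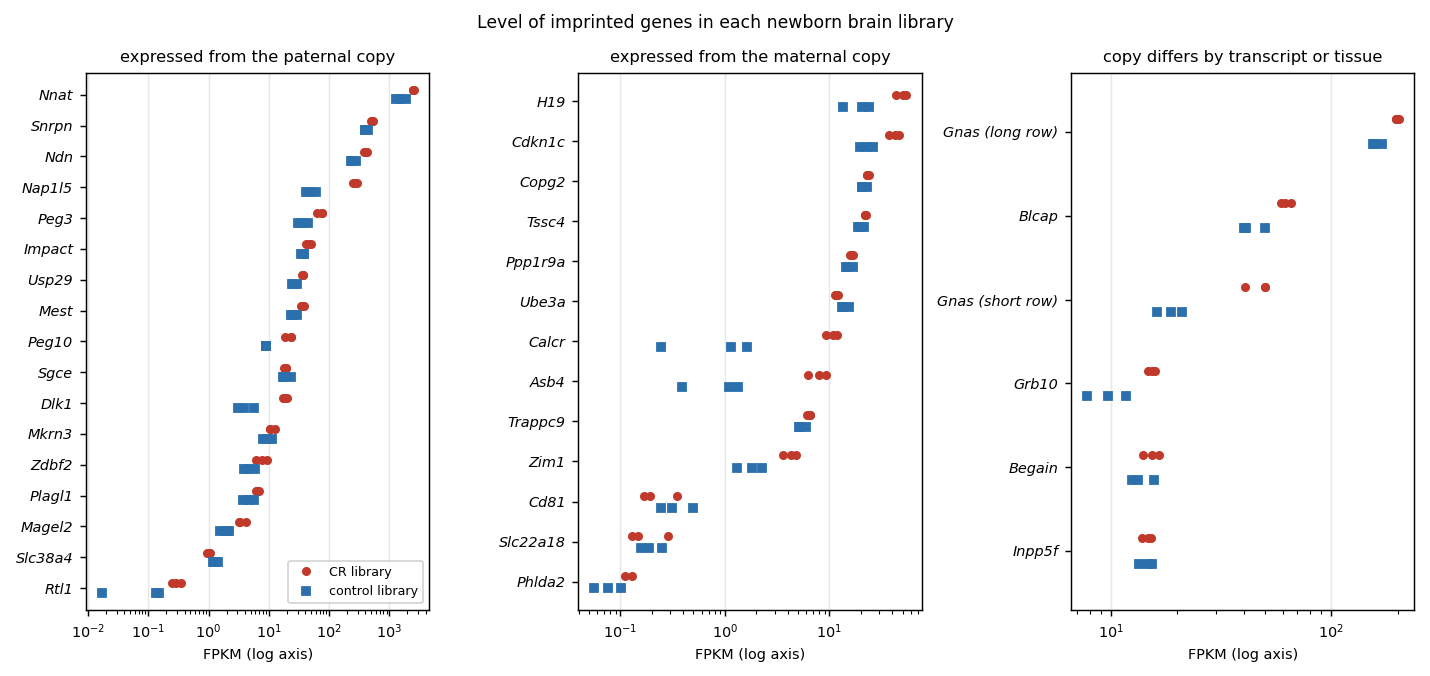
FPKM (horizontal, log axis) of each imprinted gene row in each library, in 3 panels by parental class; red circles are the CR libraries and blue squares the control libraries. Levels run from Nnat, at 1310 FPKM or more in every library, to Phlda2, whose CR library 3 had 0 reads and cannot be drawn; circles lie right of all squares for Nap1l5, Peg10, Dlk1, Calcr and Asb4.

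The start regions of Nap1l5, Calcr, Dlk1 and Peg10 are shown. Imprint control regions often overlap the promoters of paternally read genes, of which Calcr is not one. A TGCCGC word, when methylated, is what the imprint-keeping zinc finger protein ZFP57 recognizes in mouse. Each sequence holds the 250 bases before the annotated start, 5′ to 3′ along the gene, from RefSeq on GRCr8 (Nap1l5, chr4:89354705-89354954, minus strand; Calcr, chr4:32691076-32691325, minus strand; Dlk1, chr6:134192347-134192596, plus strand; Peg10, chr4:33808776-33809025, plus strand). Capitals mark TGCCGC or its reverse complement GCGGCA.
Nap1l5: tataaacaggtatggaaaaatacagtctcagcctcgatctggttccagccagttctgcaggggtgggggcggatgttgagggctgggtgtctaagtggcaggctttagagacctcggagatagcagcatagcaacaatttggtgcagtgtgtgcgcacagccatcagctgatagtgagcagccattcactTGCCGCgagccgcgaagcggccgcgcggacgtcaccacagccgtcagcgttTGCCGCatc
Calcr: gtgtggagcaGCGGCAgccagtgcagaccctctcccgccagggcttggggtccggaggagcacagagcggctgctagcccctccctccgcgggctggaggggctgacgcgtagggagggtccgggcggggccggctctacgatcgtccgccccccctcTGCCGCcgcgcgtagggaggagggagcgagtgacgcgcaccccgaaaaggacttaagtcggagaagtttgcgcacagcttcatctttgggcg
Dlk1: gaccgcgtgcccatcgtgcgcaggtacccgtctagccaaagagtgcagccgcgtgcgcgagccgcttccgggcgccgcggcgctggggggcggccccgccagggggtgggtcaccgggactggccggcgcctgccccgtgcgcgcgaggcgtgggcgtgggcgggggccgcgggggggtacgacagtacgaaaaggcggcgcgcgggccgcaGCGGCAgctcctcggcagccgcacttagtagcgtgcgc
Peg10: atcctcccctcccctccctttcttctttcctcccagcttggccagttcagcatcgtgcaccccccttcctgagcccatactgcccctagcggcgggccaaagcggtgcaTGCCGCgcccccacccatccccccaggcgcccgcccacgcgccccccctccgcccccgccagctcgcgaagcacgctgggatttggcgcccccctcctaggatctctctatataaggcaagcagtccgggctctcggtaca
The Nap1l5 stretch holds the word 2 times, 60 and 9 nt before the start, the Calcr stretch 2 times, and those of Dlk1 and Peg10 once each. RefSeq promoter windows of 300 bases (250 before the start and 50 after it) were at hand for 32 of the 37 symbols, in 35 windows. These include Meg3 and Commd1, whose levels were not measured, and more than 1 window each for Gnas and Begain. The windows of Peg10 and Sgce share 263 bases that hold the word, so it is counted in both. TGCCGC or GCGGCA was in 13 of the 35 windows (37.1%), beside 11.7% of all 33469 windows of the table. The window of Asb4, whose sequence is not printed, held no match. The windows of imprinted genes were also richer in CpG, with a median observed over expected ratio of 0.68 beside 0.39, and CCGCG on either strand, a CpG-rich word with no such role, was in 57.1% of them beside 28.3%. The core letters of YY1 sites, GCCAT on either strand, were in 48.6% beside 41.2%. These are matches of letters and not sites; CCGCG can overlap a TGCCGC match.

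The next genes, grouped here by role after their values were seen, are known for restraint of growth. H19, a maternally read long non-coding RNA next to Igf2 on chromosome 1, had 54.3, 43.6 and 50.8 FPKM in CR libraries, against 20.4, 13.4 and 24.1 FPKM in control libraries (log2 fold change 1.35, SE 0.189, limma adjusted p = 0.0023). Cdkn1c, which encodes the cyclin-dependent kinase inhibitor p57, had 46.4, 42.5 and 36.8 FPKM in CR libraries, against 23.1, 19.6 and 26.3 FPKM in control libraries (0.84, SE 0.117, limma adjusted p = 0.00225). Grb10, an adaptor that dampens insulin and IGF1 receptor signalling and is read from the paternal copy in mouse neurons, had 15.3, 15.8 and 14.7 FPKM in CR libraries, against 9.67, 7.75 and 11.7 FPKM in control libraries (0.62, SE 0.126, limma adjusted p = 0.0088). For these 3 genes every CR library was above every control library.

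Plagl1, a zinc finger transcription factor that arrests cell growth and acts on other imprinted genes in mouse, had 6.12, 6.8 and 6.42 FPKM in CR libraries, against 4.54, 3.76 and 5.66 FPKM in control libraries. Its groups were apart, with a log2 fold change of 0.41 (SE 0.125, limma adjusted p = 0.0388). This call was lost without CR replicate 1, 2 or 3 (limma adjusted p = 0.0722, 0.123 and 0.101) and without control replicate 1 or 2 (0.0857 and 0.0862). It held without control replicate 3 (log2 fold change 0.53, limma adjusted p = 0.00766). Phlda2, which limits placental growth, had 0 to 2 reads in any library.

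The retrotransposon-derived Peg10 rose while its neighbour Sgce did not pass the test. Peg10, an essential placental gene with a gag-like protein, had 18.7, 23.2 and 23.4 FPKM in CR libraries, against 8.94, 9.04 and 9.1 FPKM in control libraries (log2 fold change 1.18, SE 0.0887, limma adjusted p = 0.000392). The control libraries lay close together, and the lowest CR library was at more than 2 times the highest of them. Sgce, epsilon-sarcoglycan, the gene of myoclonus-dystonia, is read from the same parental copy in the opposite direction and had 17.7, 19.6 and 19.1 FPKM in CR libraries, against 18.1, 16.9 and 23.0 FPKM in control libraries. The groups of Sgce overlapped, with a log2 fold change of -0.02 (SE 0.108, limma adjusted p = 0.884) that turned to 0.02 without CR replicate 1 and 0.10 without control replicate 3. In RefSeq the starts of the 2 genes are 238 nt apart, and their promoter windows share 263 bases, the Peg10 sequence above included.

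Ppp1r9a, the actin- and phosphatase-binding neurabin of dendritic spines, lies between Peg10 and Asb4 and had 16.0, 15.8 and 16.7 FPKM in CR libraries, against 14.4, 16.8 and 14.7 FPKM in control libraries. The groups overlapped (log2 fold change 0.08, SE 0.0684, limma adjusted p = 0.408), so that of the 5 listed genes of this cluster Calcr, Peg10 and Asb4 were higher, while Sgce and Ppp1r9a did not pass.

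In the Peg3 cluster all 3 listed genes were higher. Peg3, a zinc finger protein that mouse mutants tie to growth, suckling and maternal care, had 62.5, 77.1 and 77.7 FPKM in CR libraries, against 36.2, 30.3 and 44.3 FPKM in control libraries (log2 fold change 0.96, SE 0.139, limma adjusted p = 0.00256). Usp29, a ubiquitin-specific protease that starts beside it in the opposite direction, had 35.5, 37.6 and 37.1 FPKM in CR libraries, against 24.6, 25.5 and 29.2 FPKM in control libraries (0.46, SE 0.0684, limma adjusted p = 0.0028). The maternally read zinc finger gene Zim1 had 3.61, 4.74 and 4.31 FPKM in CR libraries, against 1.83, 1.3 and 2.26 FPKM in control libraries (0.91, SE 0.149, limma adjusted p = 0.00405). No CR library fell among the control libraries for any of the 3 genes.

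The Prader-Willi and Angelman cluster on chromosome 1 moved in both directions. Ndn, a MAGE family protein of postmitotic neurons, had 382, 434 and 409 FPKM in CR libraries, against 243, 228 and 285 FPKM in control libraries (log2 fold change 0.70, SE 0.0888, limma adjusted p = 0.00171). Magel2, a MAGE protein of hypothalamic neurons that works in endosomal protein sorting, had 3.17, 4.22 and 3.31 FPKM in CR libraries, against 1.94, 1.58 and 2.21 FPKM in control libraries (0.65, SE 0.129, limma adjusted p = 0.00814). Snrpn, a splicing protein whose promoter holds the control region of the cluster in mouse, had 506, 527 and 523 FPKM in CR libraries, against 398, 389 and 435 FPKM in control libraries (0.35, SE 0.0546, limma adjusted p = 0.00331). These 3 paternally read genes had groups that were apart. Mkrn3, a ubiquitin ligase that restrains the onset of puberty, had 10.5, 12.6 and 10.4 FPKM in CR libraries, against 8.04, 9.2 and 11.1 FPKM in control libraries; it overlapped and did not pass (0.22, SE 0.121, limma adjusted p = 0.19), but passed without control replicate 3 (0.34, limma adjusted p = 0.0457).

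Ube3a, the ubiquitin ligase whose maternal copy is lost in Angelman syndrome, had 11.4, 11.5 and 12 FPKM in CR libraries, against 13.4, 13.3 and 15.4 FPKM in control libraries. Every CR library was below every control library, with a log2 fold change of -0.25 (SE 0.0713, limma adjusted p = 0.0313). That call was lost without CR replicate 1 (limma adjusted p = 0.0883), 2 (0.0963) or 3 (0.0702). In mouse neurons the paternal Ube3a copy is silenced by a long antisense transcript that begins at Snrpn and carries small nucleolar RNAs. The 95 rows under 200 nt on the strand of Snrpn between it and Ube3a summed to 1.77 ± 0.919 reads per 1000000 assigned reads in CR and 2.41 ± 0.786 in control (SD, n = 3 each), and the groups overlapped. Libraries of polyadenylated RNA hold little of such small RNA. Unnamed rows of 14468 and 2680 nt just past Snrpn on its strand also overlapped (log2 fold changes -0.07 and -0.05, limma adjusted p = 0.632 and 0.768). Whether they belong to the antisense transcript was not checked.

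Nnat was the most abundant of the listed genes. It encodes neuronatin, a small membrane proteolipid of the endoplasmic reticulum, and had 2455, 2549 and 2455 FPKM in CR libraries, against 1478, 1310 and 1857 FPKM in control libraries (log2 fold change 0.70, SE 0.119, limma adjusted p = 0.00464). By FPKM it ranked between 6 and 8 among all genes in CR libraries and between 12 and 32 in control libraries. Blcap, which holds Nnat inside its intron on the other strand with no shared exon, had 61.6, 65.7 and 59.3 FPKM in CR libraries, against 41.1, 40.2 and 50.2 FPKM in control libraries (0.50, SE 0.0873, limma adjusted p = 0.00502). Both genes had groups that were apart.

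Gnas, which encodes the stimulatory G protein alpha subunit and several overlapping transcripts of differing parental origin, was split over 2 rows. The long row (ENSRNOG00000047374) had 196, 202 and 197 FPKM in CR libraries, against 156, 154 and 169 FPKM in control libraries, a log2 fold change of 0.31 (SE 0.0478, limma adjusted p = 0.00324). The short row (ENSRNOG00000025889) had 40.5, 50.1 and 49.9 FPKM in CR libraries, against 18.7, 16.2 and 20.9 FPKM in control libraries, a log2 fold change of 1.29 (SE 0.111, limma adjusted p = 0.000533). The groups were apart for both rows, with the larger change on the short one. These values are uncertain as measures of single transcripts: 1179 of the 1637 nt of the short row are shared with the long row, and an unnamed gene on the other strand overlaps 874 nt of the long row.

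Of the remaining paternally read genes, 3 were higher. Mest, a hydrolase-like protein of mesoderm and fat, had 33.7, 35.3 and 37.8 FPKM in CR libraries, against 29.6, 23.4 and 25.7 FPKM in control libraries (log2 fold change 0.43, SE 0.0874, limma adjusted p = 0.00881). Its groups were apart, while those of Copg2, a coatomer subunit gene whose end overlaps that of Mest by 60 nt, were not: 23.9, 22.7 and 22.7 FPKM in CR libraries, against 20.4, 22.9 and 20.5 FPKM in control libraries (0.11, SE 0.0603, limma adjusted p = 0.181). Zdbf2, which affects feeding of newborn mice, had 6.24, 9.21 and 7.7 FPKM in CR libraries, against 4.35, 3.93 and 5.91 FPKM in control libraries (0.61, SE 0.162, limma adjusted p = 0.0245). Impact, an inhibitor of the kinase GCN2 that senses amino acid shortage, had 41.6, 49.6 and 45.7 FPKM in CR libraries, against 38.2, 34.3 and 38.4 FPKM in control libraries (0.30, SE 0.0746, limma adjusted p = 0.0198).

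The calls of Zdbf2 and Impact depended on single libraries. For Zdbf2, limma adjusted p was 0.0858 and 0.0735 without CR replicates 2 and 3, and 0.0664 and 0.0711 without control replicates 1 and 2. For Impact it was 0.0668 and 0.0634 without CR replicates 2 and 3, and 0.058 without control replicate 2. In all these fits both genes kept a positive log2 fold change.

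The rest of the list did not pass. Slc38a4, a transporter of neutral amino acids that is prominent in placenta and liver, had 0.949, 1.07 and 1.01 FPKM in CR libraries, against 1.18, 1.27 and 1.44 FPKM in control libraries; every CR library was lower, with a log2 fold change of -0.19 (SE 0.102, limma adjusted p = 0.189). Inpp5f, a phosphoinositide phosphatase, had 13.8, 14.8 and 15.2 FPKM in CR libraries, against 13.4, 15.4 and 14.8 FPKM in control libraries (0.01, SE 0.0709, limma adjusted p = 0.944). Trappc9, a subunit of a vesicle-trafficking complex, had 6.46, 6.08 and 6.55 FPKM in CR libraries, against 5.24, 5.14 and 6.0 FPKM in control libraries (0.19, SE 0.0813, limma adjusted p = 0.109). The groups of Inpp5f overlapped and those of Trappc9 did not; Trappc9 passed without control replicate 3 (limma adjusted p = 0.0414) and with limma-voom on reads (adjusted p = 0.0449).

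Tssc4 and Cd81, neighbours of Cdkn1c, cannot be read apart in these tables. Tssc4, a factor of spliceosome assembly, had 22.1, 22.3 and 21.9 FPKM in CR libraries, against 18.8, 19.7 and 21.6 FPKM in control libraries (log2 fold change 0.14, SE 0.0606, limma adjusted p = 0.116), and passed without control replicate 3 (0.19, limma adjusted p = 0.0277). Its deposited gene model shares 1057 nt on the same strand with Cd81, which is 43.4% of the exon of Cd81. Cd81, a tetraspanin, stood at 0.167, 0.191 and 0.351 FPKM in CR and 0.497, 0.243 and 0.312 in control, from 9 to 22 reads, so neither value is a safe measure of its gene. Slc22a18, an organic cation transporter of the same cluster, had 0.149, 0.283 and 0.129 FPKM in CR and 0.189, 0.157 and 0.251 in control, from 4 to 11 reads, and its groups overlapped.

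Ratios of listed genes were taken within clusters, and between H19 and Cdkn1c, which lie in separate domains of chromosome 1. In 7 of the 8 pairs used, every CR library had a higher ratio than every control library. The pairs are not separate results, since Ndn and Snrpn each stand in more than 1 of them. The share of such pairs among other genes was not taken. For single genes, a different measure, all CR libraries were above all control libraries in 26.1% of all tested genes and below in 24.3%. With 3 libraries against 3, the exact permutation test (two-sided) cannot go below p = 0.1. That was the value of each of these 7 pairs (adjusted p = 0.114 over the 8 pairs). Peg10 over Sgce was 1.06, 1.18 and 1.23 in CR libraries, against 0.495, 0.537 and 0.396 in control libraries. Peg10 was thus the higher gene of this pair in each CR library, and Sgce in each control library. Snrpn over Ube3a, which are read from opposite parental copies, was 44.4, 46.0 and 43.7 in CR libraries, against 29.8, 29.3 and 28.2 in control libraries. That ratio varied little within a group, with SDs of 1.2 in CR and 0.824 in control. Every CR library was above every control library for Snrpn and below for Ube3a, so their ratio had to separate the groups.

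Both genes of some pairs were higher, by unequal amounts. Peg3 over Usp29 averaged 1.97 ± 0.181 in CR and 1.39 ± 0.179 in control, and Ndn over Snrpn 0.787 ± 0.0346 in CR and 0.617 ± 0.0368 in control (SD, n = 3 each). H19 over Cdkn1c was 1.19 ± 0.179 in CR and 0.828 ± 0.124 in control, and Nnat over Blcap 40.0 ± 1.31 in CR and 35.2 ± 2.31 in control. Magel2 over Ndn was 0.00869 ± 0.000887 in CR and 0.00756 ± 0.000557 in control. Mest over Copg2 overlapped, at 1.41, 1.56 and 1.66 in CR libraries, against 1.45, 1.02 and 1.25 in control libraries (exact permutation p = 0.2).

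**Figure D3:**
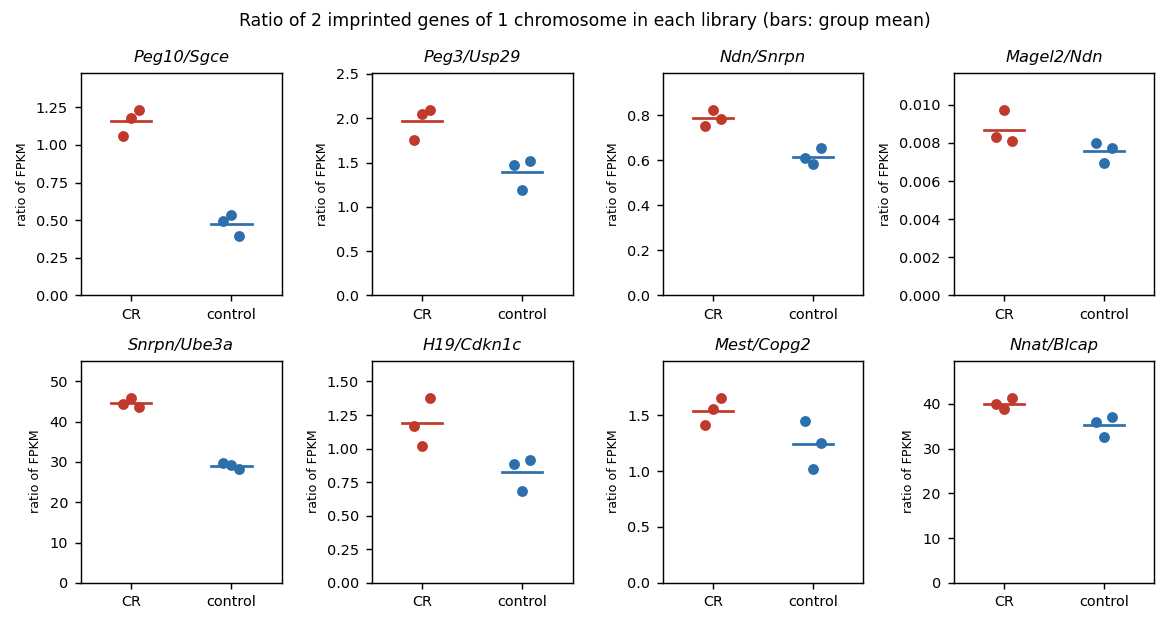
Ratio of the FPKM of 2 listed imprinted genes of the same chromosome (vertical, from 0) in each of the 3 CR libraries (left, red) and 3 control libraries (right, blue), with a bar at each group mean. The groups do not overlap except for Mest over Copg2; Peg10 over Sgce lies above 1 in every CR library and at 0.537 or less in every control library.

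Genes around the listed ones were called higher at a share near that of all tested genes. Within the clusters and 250 kb on each side, 159 other rows were tested; 32 (20.1%) were higher and 13 (8.18%) lower in CR, beside 17.7% and 16.2% of all tested genes, with a median log2 fold change of 0.16. Around Peg10, Casd1 and Pon2 were higher (log2 fold changes 0.45 and 0.57, limma adjusted p = 0.00548 and 0.0015), both described as imprinted in mouse, whereas Vps50 next to Calcr had -0.12 (limma adjusted p = 0.121). Around Peg3, the zinc finger gene Zfp954 was lower (-0.50, limma adjusted p = 0.0124). The difference between the listed genes and their neighbours was not tested, and neighbours include many small RNA rows.

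**Figure D4:**
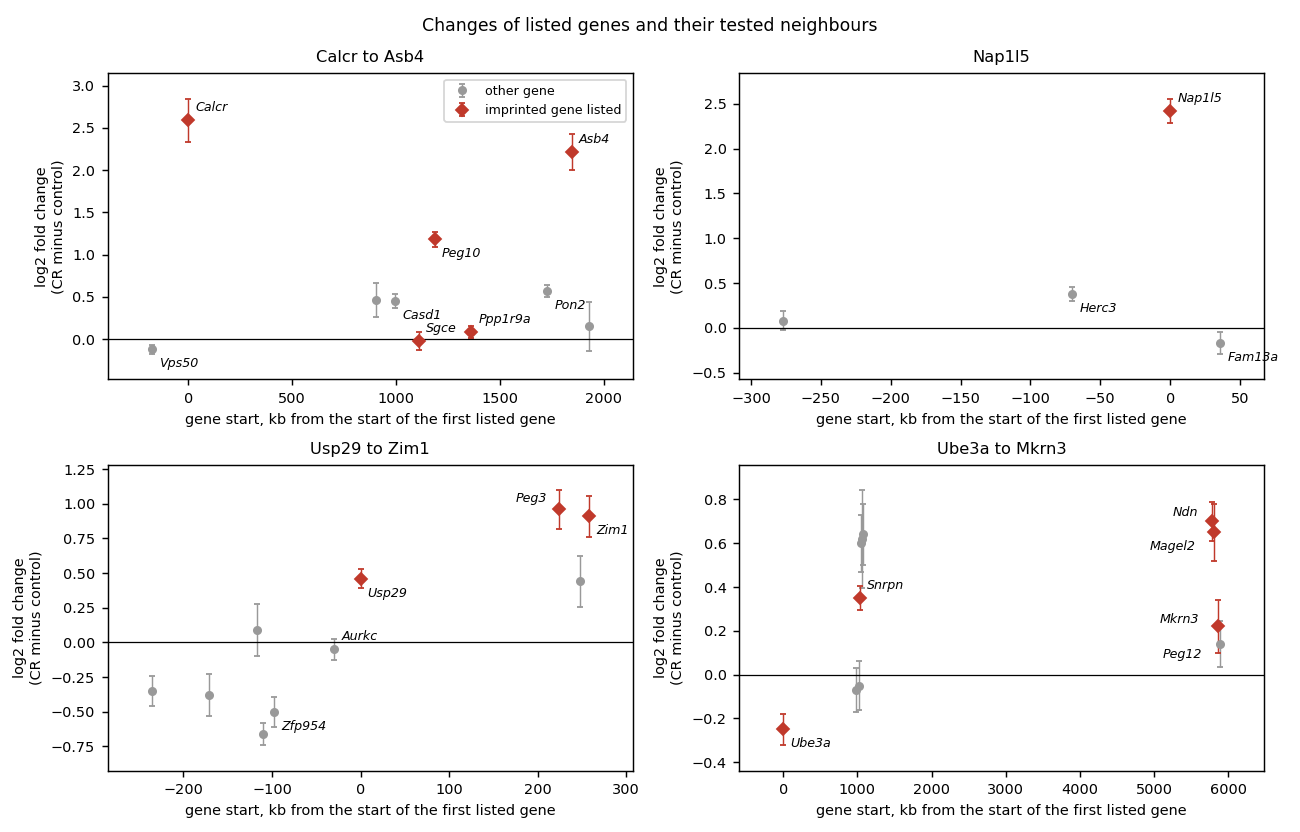
Log2 fold change (vertical, CR minus control, bars for the SE) of listed imprinted genes (red diamonds) and other tested genes of at least 200 nt (grey circles) by distance in kb from the start of the first listed gene (horizontal) in 4 clusters. Sgce and Ppp1r9a, on either side of Peg10, lie near 0, and Herc3, around Nap1l5, lies at 0.38 beside 2.42 for Nap1l5.

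Between Dlk1 and Rtl1, on the strand of Dlk1 where the maternally read non-coding RNA Meg3 is made in mouse, rows of small RNA genes were measured. Mir770, a row of 94 nt, had 185, 299 and 318 FPKM in CR libraries, against 143, 100 and 149 FPKM in control libraries, with the groups apart (log2 fold change 1.01, SE 0.223, limma adjusted p = 0.0122). Libraries of polyadenylated RNA measure longer transcripts that cover such a row, not the mature microRNA. The 2 mature sequences are printed because they identify the row that stands in this region for want of a Meg3 row. They are from RefSeq on GRCr8, 5′ to 3′, at chr6:134298094-134298115 and chr6:134298129-134298145 on the plus strand, with the seed (bases 2 to 8) in capitals.
rno-miR-770-5p: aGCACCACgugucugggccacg
rno-miR-770-3p: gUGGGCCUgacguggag
The 2 arms have different seeds. Summed over all 119 rows under 200 nt on this strand, from Dlk1 to 250 kb past Rtl1, there were 46.9, 68.4 and 66.1 reads per 1000000 assigned reads in CR libraries, against 33.9, 26.4 and 41.0 in control libraries. Each CR library was above each control library. Without Mir770 the sums were 35.4 ± 5.45 in CR and 21.5 ± 5.12 in control (SD, n = 3 each), 1.65 times as high in CR as in control.

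The control libraries varied together across the listed genes. Of the 22 rows higher in CR, 19 (86.4%) had control library 2 lowest and control library 3 highest within the control group, an order found in 24.7% of all tested genes and 30.9% of all genes higher in CR. Relative to the mean of their own group, these 22 rows had median log2 values of -0.09, 0.06 and 0.01 in CR libraries 1 to 3, against -0.02, -0.26 and 0.24 in control libraries 1 to 3. The coefficient of variation was larger in the control group for 30 of the 32 tested rows (93.8%), beside 65.6% of all tested genes; its median was 6.2% in CR and 12.7% in control.

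Some summed markers shared that order and others did not. Control library 2 was the lowest and control library 3 the highest for hypothalamic markers (7.24 and 9.64 FPKM), meningeal markers (58.0 and 117 FPKM), microglial markers (32.4 and 45.5 FPKM), astrocyte markers (72.8 and 95.6 FPKM) and markers of endothelium and pericytes (50.1 and 55.7 FPKM). Neuronal markers (3306 and 2950 FPKM in control libraries 2 and 3) and dorsal telencephalic markers (626 and 506 FPKM) ran the opposite way, and choroid plexus markers were lowest in control library 3. Between groups, microglial markers summed to 57.3 to 65.8 FPKM in CR and 32.4 to 45.5 in control, astrocyte markers to 143 to 172 in CR and 72.8 to 95.6 in control, and pituitary markers to 4.18 to 7.09 in CR and 0.573 to 1.26 in control, where Prl and Tshb had no reads. In turn 8 of 9, 6 of 7 and 4 of 8 of these genes were above all control libraries, and none was below. Markers of muscle and cartilage, tissues outside the brain, summed to 19.6 to 30.2 FPKM in CR and 12.9 to 13.2 in control. Of these 9 genes, 7 were above all control libraries and 1, the barely detected Myog, was below. Markers of the meninges, a known site of Igf2 expression, summed to 114 to 138 FPKM in CR and 58.0 to 117 in control, and neuronal markers to 3019 to 3080 in CR and 2950 to 3306 in control. Both sums overlapped. The neuronal sum hides opposite changes: of its 7 genes, 3 were above all control libraries and 3 were below. RNA of Y-linked genes was present in CR libraries 1 and 3 and in control library 3 alone of its group. With its presence as a covariate, 20 imprinted rows were higher, and the calls of Plagl1 (limma adjusted p = 0.0787) and Zdbf2 were lost. The part of these differences in the changes was not tested.

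**Figure D5:**
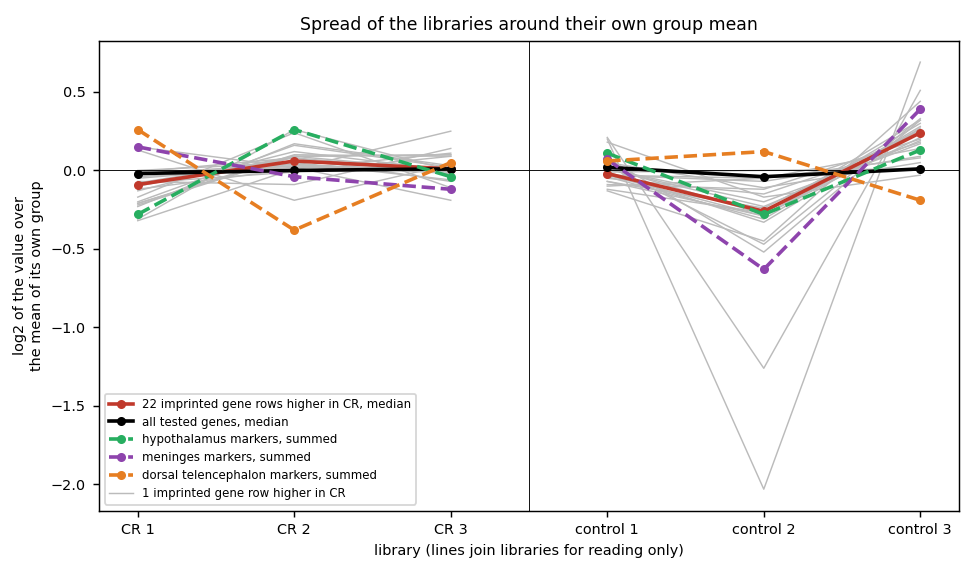
Log2 of each value over the mean of its own group (vertical) in the 3 CR libraries and the 3 control libraries (horizontal); grey lines are the 22 imprinted rows higher in CR, the red line their median, the black line the median of all tested genes and dashed lines are summed markers. The red line is at -0.26 in control library 2 and 0.24 in control library 3, beside -0.04 and 0.01 for all tested genes; the lowest grey points are Calcr and Asb4.

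A wider list of 43 other genes listed as imprinted, Igf2 among them, had 24 tested genes. Whether each of them is imprinted in rat brain was not checked. Of these, 8 were called higher and 4 lower, and 12 missed the threshold, with a median log2 fold change of 0.17. That is 33.3% higher and 16.7% lower, beside 17.7% and 16.2% of all tested genes. The largest increases past the test were in Ddc, the decarboxylase of dopamine and serotonin synthesis (4.66 ± 0.417 FPKM in CR and 0.663 ± 0.224 in control, log2 fold change 1.77, limma adjusted p = 0.000301), Rasgrf1, a Ras exchange factor (12.4 ± 1.87 in CR and 5.76 ± 1.35 in control, 1.00), and Kcnk9, a potassium channel (6.26 ± 1.21 in CR and 2.81 ± 0.225 in control, 0.92). Igf2 itself, beside H19, had a log2 fold change of 0.92 (limma adjusted p = 0.0135). The largest decreases were in Dlx5, a transcription factor of the ventral telencephalon and one of its markers above (13.8 ± 0.883 FPKM in CR and 27.3 ± 2.85 in control, -0.93), Pde10a, the phosphodiesterase of striatal neurons (8.63 ± 0.831 in CR and 12.5 ± 1.09 in control, -0.49), and Rb1, the retinoblastoma protein gene (-0.37).

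Genes listed as regulators of imprinting were lower in CR or did not pass, with 1 exception. The list is broad: it also holds Polycomb genes such as Ezh2 and the Tet oxidases of methylcytosine. Its shares are thus not those of imprint-keeping genes alone, and it too was chosen with earlier results of these data known. Of 30 listed, 27 were tested; 16 were called lower and 1 higher, and 10 missed the threshold, with a median log2 fold change of -0.23. That is 59.3% lower and 3.7% higher, beside 16.2% and 17.7% of all tested genes. Zfp57 had 26.2, 26.2 and 27.6 FPKM in CR libraries, against 32.2, 29.6 and 32.2 FPKM in control libraries (log2 fold change -0.22, SE 0.0532, limma adjusted p = 0.0166). Its partner Trim28, which recruits repressive chromatin, had 73.8, 73.3 and 74.1 FPKM in CR libraries, against 88.0, 87.7 and 84.8 FPKM in control libraries (-0.23, SE 0.0389, limma adjusted p = 0.00427). The groups were apart for both genes. The largest decreases were in Ezh2, the methyltransferase of Polycomb repression (-0.69), Arid4a, which helps keep the Prader-Willi imprint in mouse (-0.55), and Tet2, an oxidase of methylcytosine (-0.44); the exception was Cbx5, heterochromatin protein 1 alpha (0.23, limma adjusted p = 0.00953). DNA methylation was not measured.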

How the data were processed

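Polyadenylated RNA was measured in 3 CR and 3 control libraries, per the labels' protocols from TRIzol extracts, with stranded QIAseq and MGIEasy conversion kits. The authors deposited 1 table of FPKM per library with the exon length and coordinates of each Ensembl gene, per the file headers. Tools named in the submitters' processing notes are STAR 2.7.10a, featureCounts 2.0.1, cutadapt 1.16, Trim Galore 0.4.4 and Trimmomatic 0.36, with build mRatBN7.2. Their roles, settings and use of strand are not given in the sources used here: overlapping genes on opposite strands may share reads. FPKM times length came out as whole multiples of 1 step for 100% of values (within 0.05), which gave reads and depth.

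The members, the gene lists and the tests were chosen with earlier results of these data known. Genes averaging 0.5 FPKM or more were fitted with limma 3.58.1 (R 4.3.3) as log2(FPKM + 1), with group as the only term and the trend option. P-values are two-sided, adjusted by Benjamini-Hochberg over 15247 genes, with a threshold of 0.05. Fold changes are CR minus control and understate low genes. The fit was tested on simulated data. Within a group, libraries differed beyond counting noise (mean chi-square per gene 6.63 to 15.6). All members with at least 0.5 FPKM are given by library; of the wider lists, up to 3 higher and 3 lower past the threshold with groups apart are named by size, plus Igf2. Zfp57, Trim28 and the neighbours named were chosen after their values were seen. Alternatives were pseudocounts of 0.1 and 0.5 (0.1 for ratios), a filter of 2 FPKM or none, quantile normalization, median-ratio size factors, no trend, robust moderation, the replicate number as a block, a Y-linked RNA covariate, limma-voom on the reads, and leaving out each library. Promoter and microRNA sequences are RefSeq's on GRCr8; coordinates of genes are those of the tables.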

Additional observations from a re-analysis of the deposited data

How the results depend on the processing

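Under every alternative between 19 and 25 of the imprinted rows were higher in CR (22 as reported), and 19 of these 22 calls held in all of them; the exceptions were Plagl1, Zdbf2 and Impact. The count of rows lower in CR was 2 with quantile normalization, where Slc38a4 passed (log2 fold change -0.32, limma adjusted p = 0.0453), and 0 to 1 when a library was left out. Calls over all genes were 3243 to 5037 when a library was left out, beside 5173. Replicate numbers did not pair the libraries (correlations of deviations 0.02, 0.02 and 0.05). With them as a replicate block, 21 imprinted rows were called higher, with Plagl1 lost (limma adjusted p = 0.0552), and 4445 genes were called in either direction. With no filter on low values, and also with the Y-linked RNA covariate, Plagl1 and Zdbf2 did not pass. The sign of Inpp5f, near 0, turned to -0.00134 with limma-voom, -0.02 with median-ratio size factors, and ran from -0.05 to 0.05 when a library was left out (-0.0023 without CR replicate 2, -0.02 without CR replicate 3). Sgce ran from -0.11 to 0.10 when a library was left out, and was positive without CR replicate 1 (0.02) and without control replicate 3 (0.10). The median log2 fold change of all genes lay between -0.029 and 0.024 over the alternatives. All 8 ratios kept their sign with a pseudocount of 0.1 FPKM and without each library. Phlda2, Slc22a18, Cd81 and Rtl1 had 0 to 42 reads a library, too few to test; for Cd81 the exon shared with Tssc4 is a further limit. The causes of these shifts were not tested.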
